A study of Mus musculus with 90 samples.

Results

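The insulin-like growth factor (IGF) genes and the genes of the Igf2 mRNA-binding proteins were followed in single mouse oocytes and embryos with and without maternal Plag1. The 9 genes were taken by their symbols from the 24422 genes of the count table: the ligands Igf2 and Igf1, the receptors Igf1r, Igf2r and Insr, the receptor substrate Irs2, and the RNA-binding proteins Igf2bp1, Igf2bp2 and Igf2bp3. All 9 were in the table, and all 9 passed the filter on low counts that left 16511 genes for testing. The 6 groups were sequenced from the 5′ ends of transcripts: ovulated metaphase II (MII) oocytes, 2-cell (2c) embryos and 8-cell (8c) embryos, each labelled WT or matPlag1KO. The Plag1 knockout was kept on the CD-1 strain. The matPlag1KO oocytes came from sexually mature Plag1 knockout females. The matPlag1KO embryos came from such females mated with WT studs, so these embryos were heterozygous, with a paternal WT allele. Females of both genotypes were superovulated, oocytes were taken 21 to 23 h after the ovulating hormone, cumulus cells were removed with hyaluronidase, and embryos were cultured until 45 to 47 h (2c) or 71 to 73 h (8c) after fertilization. Collection was spread over 3 occasions that the labels do not tie to single libraries. Each library was 1 whole oocyte or embryo, and the labels do not tie oocytes or embryos to donor females, so the tests measure the spread between libraries, some of which may share a mother.

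IGF1 and IGF2 are secreted growth factors that signal through the IGF1 receptor, a tyrosine kinase closely related to the insulin receptor, and IRS2 carries that signal from the receptor to the PI3 kinase pathway. IGF2R binds IGF2 without such signalling and takes it to the lysosome. The 3 IGF2BP proteins bind Igf2 and many other mRNAs and control where, how long and how well they are translated. PLAG1 is a zinc finger transcription factor, and Igf2 is its best known target.

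Of the 90 libraries, 78 were used: 16 WT and 14 matPlag1KO oocytes, 11 and 11 2c embryos, and 15 and 11 8c embryos. They held 222357 to 2502421 gene counts in WT oocytes, 438233 to 1772844 in matPlag1KO oocytes, 92475 to 256529 at 2c and 214053 to 696870 at 8c. A 2c library was therefore the shallowest kind, and 1 count there weighs most. The targeted gene, Plag1, had a count in 16 of 16 WT and 3 of 14 matPlag1KO oocytes. At 2c the order was reversed, with a count in 1 of 11 WT and 9 of 11 matPlag1KO embryos. The paper reports the same reversal and attributes it to activation of the paternal allele. The allele of origin was not tested here, and the labels were kept as given. The 7 oocyte genes were Zp1, Zp2, Zp3, Gdf9, Bmp15, Mos and Oosp1. Together they made up 4404 to 20540 CPM (counts relative to library size) in oocytes and 10.1 to 243 CPM at 8c. The sum of 6 genes of the 2c stage rose from at most 11.8 CPM in oocytes to 168 CPM or more at 2c. At 8c this sum stood at 153 to 326 CPM, so it did not separate 2c from 8c. Single genes of the list did differ: all 6 had counts in both 2c groups, while Zscan4c and Zscan4d had none in either 8c group. A list of 6 later genes did not separate the stages, with 249 to 1559 CPM in oocytes and 271 to 2495 CPM at 8c. Within a stage the lists also differed between genotypes. In WT and matPlag1KO the median sums were 6223 and 14600 CPM for the oocyte genes in oocytes, 3921 and 5984 CPM for the same genes at 2c, 299 and 779 CPM for the 2c genes at 2c, and 1454 and 668 CPM for the later genes at 8c. Their part in the genotype differences was not tested.

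The stretches before the start sites of the genes were searched for the PLAG1 consensus, a GC-rich core followed by a G cluster after a spacer of 6 to 8 bases, because PLAG1 is the factor that the knockout removes. RefSeq promoter windows (GRCm38.p6, 300 bases, from 250 bases before to 50 bases after a start) were at hand for 7 of the 9 genes, in 10 windows; Igf2bp1 and Insr had none. A match (either strand searched) was present in 5 of the 10 windows, against 19.2% of all 32851 windows. By gene it was present in 5 of the 7, against 21.2% of all gene symbols, and a gene with several windows has more chances to match. The first sequence below is the 250 bases before the start of Igf2 that held a match (chr7:142657497-142657746, minus strand). The others are short stretches around the matches of Igf1r (chr7:67952013-67952068 and chr7:67952199-67952253, plus strand), Igf2r (chr17:12769709-12769763, minus strand) and Igf2bp2 (chr16:22163444-22163499, minus strand). All are written 5′ to 3′ along the gene, and capitals mark the match, which reads on the opposite strand in Igf2bp2.
Igf2: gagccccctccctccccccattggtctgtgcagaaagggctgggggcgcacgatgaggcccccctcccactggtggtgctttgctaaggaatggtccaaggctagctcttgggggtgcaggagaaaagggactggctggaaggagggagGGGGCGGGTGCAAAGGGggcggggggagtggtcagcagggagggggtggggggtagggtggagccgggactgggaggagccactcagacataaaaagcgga
Igf1r, far match: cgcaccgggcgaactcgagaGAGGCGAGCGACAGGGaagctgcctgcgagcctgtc
Igf1r, near match: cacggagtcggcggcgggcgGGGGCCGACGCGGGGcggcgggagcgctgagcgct
Igf2r: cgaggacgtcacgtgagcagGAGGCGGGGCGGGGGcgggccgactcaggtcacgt
Igf2bp2: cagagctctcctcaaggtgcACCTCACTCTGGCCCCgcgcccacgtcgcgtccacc
The Igf2 match lay 101 to 85 bases before the start, those of Igf1r 224 to 209 and 38 to 24 bases, that of Igf2r 37 to 23 bases and that of Igf2bp2 180 to 165 bases. Irs2 had 3 matches, while the windows of Igf1 and Igf2bp3 and the other 3 windows of Igf2 had none of these letters. The matched Igf2 window was found once in mm9, the build of the counts, at chr7:149843352-149843651, inside the annotated Igf2 gene (chr7:149836673-149852721). A match in a GC-rich promoter is a description of its letters and does not show binding.

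Levels are given as CPM on library sizes scaled by the TMM method. In the plot of levels by library, the genes fell into those followed by few counts (Igf2, Insr and Irs2), those present in oocytes and lower later (Igf1, Igf1r, Igf2bp2 and Igf2bp3) and those higher later (Igf2r and Igf2bp1).

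**Figure D1:**
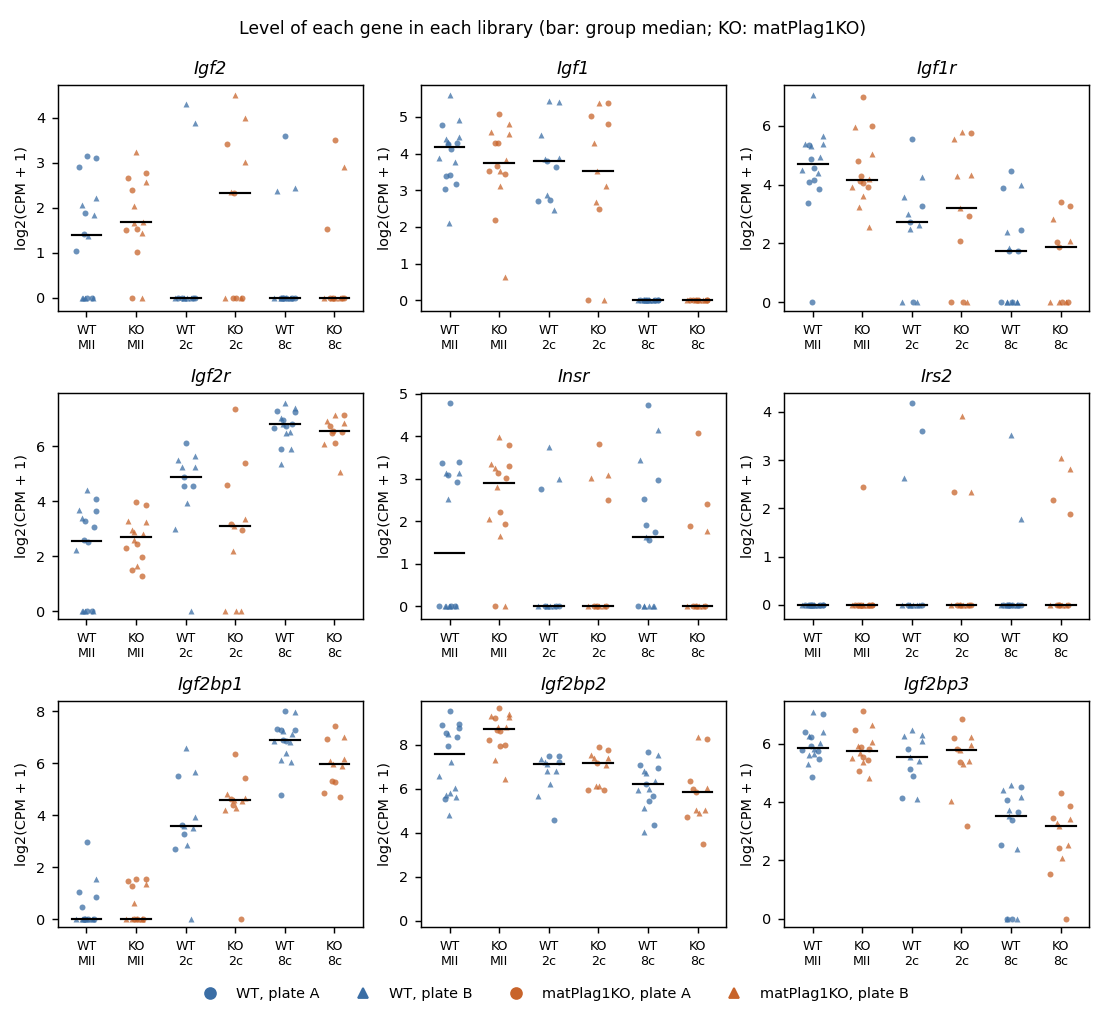
Level of the 9 genes as log2(CPM + 1) in each of the 78 libraries by group, with circles for plate A and triangles for plate B, the 2 sequencing pools, and a bar at the group median. Igf1 is at 0 in all 26 8c embryos, while Igf2r and Igf2bp1 have counts in all 26.

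Igf2, the growth factor and PLAG1 target, was scarce at every stage. It had 39 counts over 10 of the 16 WT oocytes (lowest 0, median 1.62, highest 7.92 CPM) and 32 counts over 12 of the 14 matPlag1KO oocytes (0, 2.20 and 8.46 CPM). At the 2c stage 2 of 11 WT embryos held 6 counts (highest 18.8 CPM) and 6 of 11 matPlag1KO embryos held 15 counts (highest 21.8 CPM). At the 8c stage 3 of 15 WT embryos and 3 of 11 matPlag1KO embryos had 8 and 6 counts. The groups overlapped at every stage, and the largest mean, 5.62 ± 7.30 CPM (SD, n = 11) in matPlag1KO 2c embryos, was below its own SD. H19, the imprinted neighbour of Igf2, had 0 counts in all 78 libraries.

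Igf1, the other ligand, was a transcript of the oocyte that was no longer seen at 8c. Every WT oocyte held it (lowest 3.35, median 17.3, highest 47.6 CPM), and so did every matPlag1KO oocyte (0.542, 12.4 and 33.1 CPM). In WT 2c embryos it was at 4.56, 12.9 and 42.5 CPM, and in matPlag1KO 2c embryos at 0, 10.6 and 40.8 CPM. At the 8c stage 0 counts were found in 15 WT and 11 matPlag1KO embryos, which allows up to 0.371 and 0.665 CPM over the group (3 counts). The summed level of 14 genes of cumulus and granulosa cells was also lower at 8c. It was 0 to 38.9 CPM in WT oocytes, 0 to 28.9 CPM in matPlag1KO oocytes, 0 to 24.4 and 0 to 43.1 CPM at 2c, and 0 to 6.33 and 0 to 6.78 CPM at 8c. Of the 14, 7 had a count in the oocytes of either genotype, and Ptgs2, Tnfaip6, Ptx3, Amh, Foxl2 and Cd44 were at 0 in both. The part of such cells in the Igf1 values was not tested.

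The receptors went separate ways. Igf1r was in 15 of 16 WT oocytes (lowest 0, median 25.3, highest 130 CPM) and all 14 matPlag1KO oocytes (4.92, 16.8 and 123 CPM). At 8c its means were 4.38 ± 6.64 (SD, n = 15) and 3.03 ± 3.59 CPM (SD, n = 11), and no 2 neighbouring groups in the order of its means differed by more than the larger of their SDs. Igf2r was lowest in oocytes, with means of 6.12 ± 6.36 CPM (SD, n = 16) in WT and 6.12 ± 4.08 CPM (SD, n = 14) in matPlag1KO, and highest at 8c, with 111 ± 42.0 CPM (SD, n = 15) and 96.1 ± 32.5 CPM (SD, n = 11). Each 8c embryo held at least 32.0 CPM of Igf2r, and no oocyte more than 20.3 CPM, so these groups did not overlap. Airn, the antisense transcript that overlaps Igf2r by 28354 bases, was instead highest in WT oocytes (45.2 ± 38.7 CPM, SD, n = 16) and lower in WT 8c embryos (17.1 ± 10.6 CPM, SD, n = 15). Igf2, Igf1, Insr, Irs2 and Igf2bp3 also have overlapping genes on the other strand, and whether the counting used the strand is not given in the sources used here. Insr had counts in 8 of 16 and 12 of 14 oocytes, in 3 and 4 of 11 2c embryos and in 9 of 15 and 4 of 11 8c embryos. Its highest group mean was 6.20 ± 4.50 CPM (SD, n = 14) in matPlag1KO oocytes.

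Irs2 was the least detected of the 9 genes. It had 0 counts in 16 WT oocytes, which allows up to 0.299 CPM over the group, 5 counts in 1 of 14 matPlag1KO oocytes, 6 counts in 3 of 11 embryos of either genotype at 2c, and 5 and 8 counts in 2 of 15 and 4 of 11 embryos at 8c.

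The balance of the 3 Igf2bp genes shifted between oocyte and 8c embryo. Igf2bp2 had its highest group means in oocytes, at a lowest of 26.8, a median of 196 and a highest of 741 CPM in WT and 84.6, 423 and 824 CPM in matPlag1KO. At 8c it stood at 15.4, 72.4 and 199 CPM and at 10.1, 56.0 and 322 CPM. No step in its order of group means exceeded the larger SD. On plate B its WT mean was 106 ± 110 CPM (SD, n = 8) in oocytes and 113 ± 40.5 CPM (SD, n = 7) at 2c. Igf2bp3 ranged from 27.9 to 134 CPM in WT oocytes (median 57.5) and from 16.4 to 87.6 CPM in WT 2c embryos (median 45.6), and in WT 8c embryos from 0 to 23.0 CPM (median 10.4). In matPlag1KO its medians were 52.9, 54.5 and 8.11 CPM. The fall at 8c was the one step in its order of group means that exceeded the larger SD. Igf2bp1 had 7 counts in all WT oocytes together and 8 in all matPlag1KO oocytes. It reached medians of 10.9 and 23.1 CPM at 2c, and 119 and 61.4 CPM at 8c, where each embryo held at least 25.2 CPM against at most 6.96 CPM in any oocyte.

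Since these 3 genes are counted in the same library, their shares do not depend on the scaling between libraries. Igf2bp1 made up 0.173 ± 0.415% (SD, n = 16) of their counts in WT oocytes, 13.3 ± 15.3% (SD, n = 11) at 2c and 58.7 ± 17.1% (SD, n = 15) at 8c. In matPlag1KO the shares were 0.133 ± 0.182% (SD, n = 14), 13.7 ± 11.6% (SD, n = 11) and 48.1 ± 21.6% (SD, n = 11). The rise from MII to 2c was 13.2 percentage points in WT and 13.6 in matPlag1KO (two-sided permutation tests, both adjusted p = 7e-05 over 7 comparisons), and each rested on a raw p of 2e-05, the smallest that 100000 resamples can give. With no library left out the matPlag1KO rise was 8.76 points and was not called (adjusted p = 0.157, permutation test). From 2c to 8c it was 45.3 points in WT (adjusted p = 9.33e-05) and 34.4 points in matPlag1KO (adjusted p = 0.000665), by the same permutation test. Within plate A the last difference was 28.1 points (exact permutation test, adjusted p = 0.0530) and within plate B 41.4 points (adjusted p = 0.0227, exact). The genotypes differed by -0.04, 0.37 and -10.5 points at MII, 2c and 8c (adjusted p = 0.915, 0.945 and 0.245 in the permutation tests), less than the SD within either group at each stage.

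**Figure D2:**
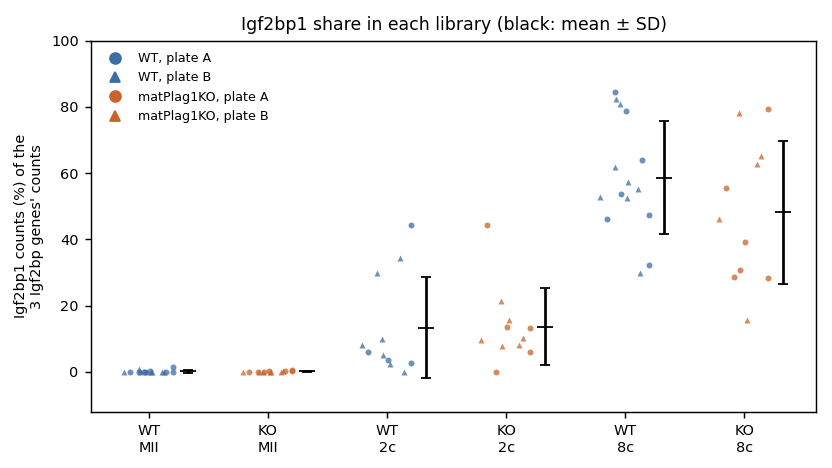
Counts of Igf2bp1 as a percentage of the counts of Igf2bp1, Igf2bp2 and Igf2bp3 in each library, by group, with the mean and SD in black at the right of each group. Oocytes sit at or under 1.51%, 2c embryos between 0 and 44.4%, and 8c embryos between 15.7 and 84.6%.

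The stages were compared next, to follow how the maternal transcripts were lost and the embryonic ones made. Here libraries were scaled to their spike-in RNA, so that a loss of RNA from the whole embryo is seen. Cell number and RNA per cell cannot be told apart in a whole embryo. On this scale the median of all tested genes moved by -1.46 (WT) and -1.42 (matPlag1KO) on the log2 scale from MII to 2c and by 0.53 and 0.30 from 2c to 8c. A gene was called where edgeR's quasi-likelihood test gave an adjusted p (Benjamini-Hochberg, over all 16511 genes) under 0.05.

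From MII to 2c in WT, 2 of the 9 genes rose, where 14.1% of all tested genes rose, and 5 fell, where 51.3% fell. In matPlag1KO 1 rose (13.5% of all genes) and 5 fell (50.3%). Igf2bp1 rose in both genotypes, by a log2 fold change of 3.23 ± 0.71 (SE; adjusted p = 1.86e-06) in WT and 3.07 ± 0.69 (adjusted p = 6.75e-06) in matPlag1KO. Without WT 2c replicate 14, which held the most Igf2bp1, the WT value was 2.57, and within plate A it was 2.04 (adjusted p = 0.0553). Igf2bp2 fell by 3.18 ± 0.53 (adjusted p = 3.15e-06) and 3.63 ± 0.54 (adjusted p = 3.57e-07) on the log2 scale. Within the plates the WT value was -3.95 on plate A but -1.10 on plate B, where it was not called (adjusted p = 0.109). Igf1r fell by 3.13 ± 0.68 and 2.49 ± 0.63, and Insr by 3.01 ± 1.03 and 2.48 ± 0.88. With TMM factors Insr was not called in either genotype (adjusted p = 0.187 and 0.388), nor Igf1r in matPlag1KO (-0.63, adjusted p = 0.357), in edgeR. Insr in WT was at -1.19 on plate B alone (adjusted p = 0.360), and without WT 2c replicate 12 at -3.64.

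Igf2bp3 and Igf1 fell closer to the median of all genes: Igf2bp3 by 2.03 ± 0.44 and 2.00 ± 0.45, and Igf1 by 1.43 ± 0.51 and 1.41 ± 0.51. With TMM factors neither of these was called, and Igf1 stood at a log2 fold change of -0.08 in WT and 0.18 in matPlag1KO. Igf2r stood at 0.66 ± 0.58 (adjusted p = 0.291) in WT and 0.14 ± 0.59 (adjusted p = 0.862) in matPlag1KO on the spike-in scale, not called. The matPlag1KO sign rested on 2c replicate 6, without which it was -1.10 (adjusted p = 0.0927), and the plates parted, at 1.18 (plate A, adjusted p = 0.191) and -2.42 (plate B, adjusted p = 0.0153, a called fall). Relative to the other genes Igf2r rose by 2.28 (adjusted p = 4.37e-05) in WT on the TMM scale, where 27.5% of all genes rose. The matPlag1KO value on that scale, 1.93 (adjusted p = 0.000582, where 29.1% of all genes rose), includes replicate 6. Its value without that library is not given here. Irs2 was called higher in WT 2c embryos (adjusted p = 0.00392, edgeR), but from only 6 counts over 3 embryos against 0 in oocytes. Per spike-in count this was 3.09-fold above a floor of 3 counts over the oocyte group. The exact 95% lower limit of the ratio was 1.82. WT 2c replicate 5 held 3 of the 6 counts, and without it the log2 fold change was 1.78 (adjusted p = 0.0245), while on plate B alone it was 1.15 (adjusted p = 0.293). In matPlag1KO Irs2 was not called (0.44 ± 1.12, adjusted p = 0.673), but without MII replicate 1, the one oocyte that held it, it was called at 2.38 (adjusted p = 0.00849, edgeR). With TMM factors Irs2 was called in matPlag1KO with all libraries (1.95, adjusted p = 0.0435). On the spike-in scale it was called on plate B alone (2.88, adjusted p = 0.0343) and not on plate A (-1.42, adjusted p = 0.368). Igf2 stood at -1.72 ± 0.90 in WT (adjusted p = 0.0507) and -0.71 ± 0.81 in matPlag1KO (adjusted p = 0.411). Its WT value moved with single libraries, from -2.45 (adjusted p = 0.0105) without WT 2c replicate 12 to -0.83 (adjusted p = 0.342) without WT MII replicate 5, all in edgeR. The plates also parted, at -5.04 (plate A, adjusted p = 0.00886) and 0.70 (plate B, adjusted p = 0.579). Within plates Igf1 was called in WT on plate A (-2.41, adjusted p = 0.0234) and not on plate B (-0.94, adjusted p = 0.259), and in matPlag1KO on neither (-1.50 and -1.30).

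From 2c to 8c in WT, 2 genes rose (31.9% of all tested genes) and 2 fell (16.2%), and in matPlag1KO likewise 2 rose (29.1%) and 2 fell (19.5%). Igf2r rose by 2.77 ± 0.55 (adjusted p = 4.66e-05) in WT and 2.66 ± 0.59 (adjusted p = 0.000155) in matPlag1KO. Without matPlag1KO 2c replicate 6 the latter was 3.902, and it was 1.48 on plate A (adjusted p = 0.145) and 5.37 on plate B. Igf2bp1 rose by 3.23 ± 0.49 (adjusted p = 2.37e-07) and 2.34 ± 0.52 (adjusted p = 0.000128), and without WT 2c replicate 14 by 3.89 in WT. On plate A alone the matPlag1KO value was 1.95 (adjusted p = 0.0576). Igf1 fell out of detection (adjusted p = 1.20e-08 and 3.13e-07). Per spike-in count, its 32 and 38 counts at 2c stood 17.6-fold (WT) and 12.4-fold (matPlag1KO) above a floor of 3 counts over the 8c group. The exact 95% counting interval of the 8c to 2c ratio reached up to 0.0739 in WT and 0.104 in matPlag1KO. Igf2bp3 fell by 1.27 ± 0.47 (adjusted p = 0.0174) and 2.14 ± 0.54 (adjusted p = 0.000499), and in WT on plate A alone it stood at -0.86 (adjusted p = 0.430). Igf2bp2, after its earlier fall, stood at 0.50 ± 0.54 and 0.26 ± 0.58 and was not called (adjusted p = 0.456 and 0.737). The same edgeR test put Igf1r at -0.19 ± 0.74 in WT (adjusted p = 0.854) and -1.71 ± 0.80 in matPlag1KO (adjusted p = 0.0507). In matPlag1KO a fall of Igf1r was called with TMM factors (-2.51, adjusted p = 0.00175) and on plate B alone (-2.53, adjusted p = 0.0415). It was not called on plate A (-0.80, adjusted p = 0.605). With 1 library left out at a time it was called in 9 of 22 fits.

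**Figure D3:**
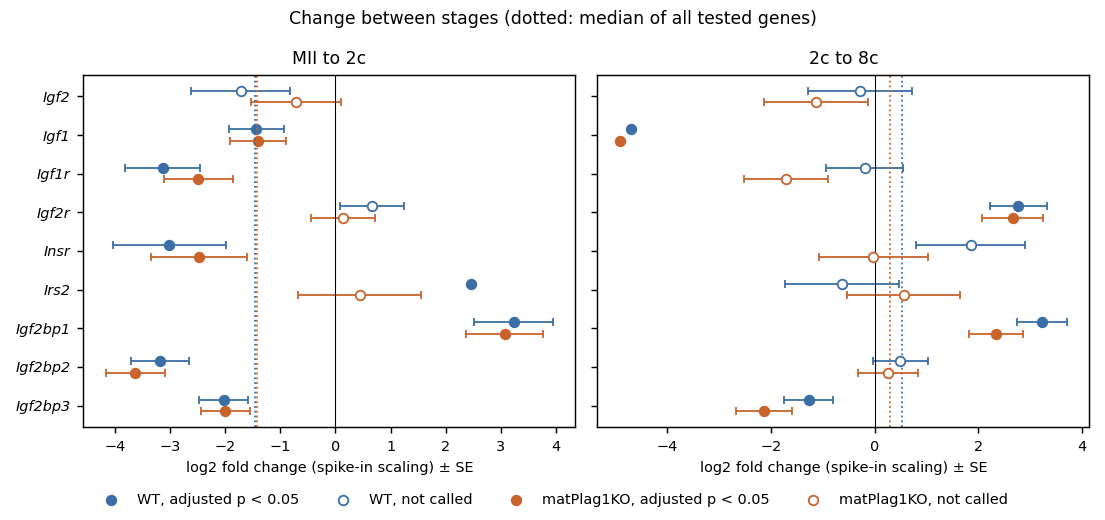
Log2 fold change of each gene between consecutive stages with spike-in scaling, with bars of 1 SE where every group had a count, filled points for an adjusted p under 0.05, and dotted lines at the median of all 16511 genes. Igf2bp1 lies to the right of the dotted lines in both steps and Igf2bp2 to their left from MII to 2c.

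The question of the knockout is whether the absence of maternal PLAG1 altered these transcripts. None of the 9 genes was called between matPlag1KO and WT at any stage in the edgeR fit of all 6 groups. This fit had no term for wells, and it called 0.781% of all tested genes at MII, 4.92% at 2c and 1.74% at 8c. It gave an unadjusted p under 0.05 for 2 of the 9 at MII, 0 at 2c and 1 at 8c. DESeq2 called 0 of those it gave an adjusted p at each stage. With wells as replicate block in oocytes, Igf2bp2 was called (log2 fold change 1.12, adjusted p = 3.83e-10, edgeR). No gene differed in its genotype effect between 2c and MII (3.31% of all genes called) or between 2c and 8c (2.3%), with 1 and 0 at an unadjusted p under 0.05 in edgeR.

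For Igf2, the known target, the log2 fold change was 0.19 ± 0.68 (adjusted p = 1.0) at MII, 0.94 ± 0.92 (adjusted p = 0.537) at 2c and 0.29 ± 0.94 (adjusted p = 0.958) at 8c in edgeR. The 95% interval at 2c ran from -0.87 to 2.75, and the pooled counts gave a ratio of 2.21 with an exact 95% counting interval from 0.812 to 6.96. Igf1 differed by -0.21 ± 0.43 at MII and 0.05 ± 0.57 at 2c, and Igf2bp3 by no more than 0.46 ± 0.45 in size at any stage. Igf1r stood at -0.06 ± 0.46, 0.99 ± 0.69 and -0.45 ± 0.76, with intervals that all held 0.

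Igf2r in 2c embryos depended on 1 library. The 11 WT embryos held a lowest of 0, a median of 28.7 and a highest of 69.1 CPM, and the 11 matPlag1KO embryos 0, 7.52 and 162 CPM. The highest, replicate 6 of plate A, held 62.2% of the group's summed CPM, and the group mean was 23.6 CPM with it and 9.83 CPM without it. The log2 fold change of matPlag1KO against WT was -0.33 ± 0.52 (adjusted p = 0.771) with all libraries and -1.53 (adjusted p = 0.0617) without this one, in edgeR. Within plates it was 0.38 (plate A, adjusted p = 0.932) and -2.83 (plate B, adjusted p = 0.0238), where 3.31% of all genes were called. On plate B, 7 WT embryos averaged 26.7 ± 19.4 CPM (SD, n = 7) and 6 matPlag1KO embryos 3.38 ± 4.14 CPM (SD, n = 6).

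Igf2bp1 at 8c was lower in matPlag1KO by 0.83 ± 0.37 on the log2 scale, with means of 73.4 ± 47.1 CPM (SD, n = 11) against 131 ± 62.4 CPM (SD, n = 15). The groups overlapped and the difference was not called after adjustment (p = 0.0276, adjusted p = 0.274, edgeR).

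Igf2bp2 in oocytes was the one difference that turned on how libraries were paired. Its mean was 432 ± 214 CPM (SD, n = 14) in matPlag1KO and 248 ± 215 CPM (SD, n = 16) in WT, a log2 fold change of 0.79 ± 0.36 that was not called (adjusted p = 0.431, edgeR). Oocytes in the same well of the 2 plates always had opposite genotypes and deviated together, and when wells entered as replicate block, together with a plate term, the log2 fold change was 1.12 (adjusted p = 3.83e-10, edgeR). That fit called 6.1% of its 12978 genes. On plate A the means were 428 ± 213 (SD, n = 7) and 390 ± 203 CPM (SD, n = 8), a log2 fold change of 0.16 (adjusted p = 0.992, edgeR). On plate B they were 436 ± 233 (SD, n = 7) and 106 ± 110 CPM (SD, n = 8), a log2 fold change of 1.97 (adjusted p = 0.00528, edgeR), where 3.05% of all genes were called.

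The oocyte genes moved with Igf2bp2. Their summed level left a gap between 6460 and 11590 CPM in which no oocyte lay. Below it were 11 oocytes, 9 WT (8 on plate B) and 2 matPlag1KO (both on plate B), with 26.8 to 362 CPM of Igf2bp2 (median 63.5). Above it were 19, 7 WT (all on plate A) and 12 matPlag1KO, with 241 to 824 CPM (median 444). Among these 19 the medians were 427 CPM in WT and 446 CPM in matPlag1KO. All 8 WT oocytes of plate B lay below the gap, so the difference there was between oocytes that also differed in their oocyte genes, and the part of this in the Igf2bp2 result was not tested. In the share of the 3 genes' counts Igf2bp2 likewise spread widely in WT oocytes (66.6 ± 24.2%, SD, n = 16; lowest 24.2%) and narrowly in matPlag1KO (86.0 ± 5.61%, SD, n = 14).

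**Figure D4:**
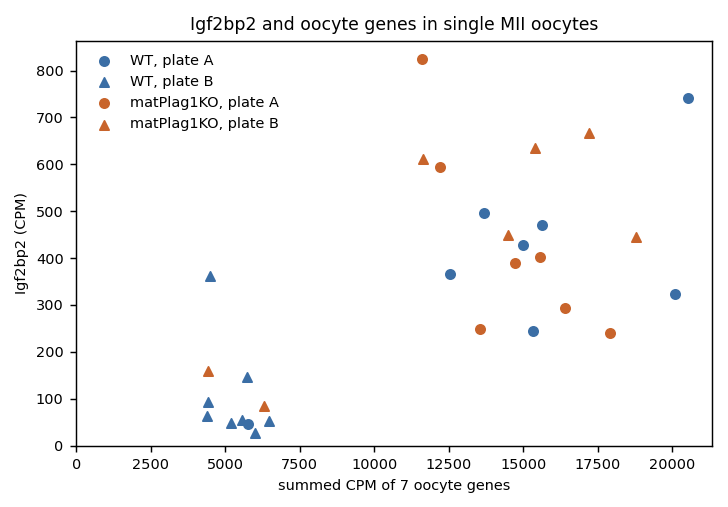
Igf2bp2 in CPM against the summed CPM of 7 oocyte genes in each of the 30 oocyte libraries, coloured by genotype, with circles for plate A and triangles for plate B. The 11 oocytes at the left are 9 WT and 2 matPlag1KO, and those at the right hold 245 to 741 CPM in WT and 241 to 824 CPM in matPlag1KO.

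**Figure D5:**
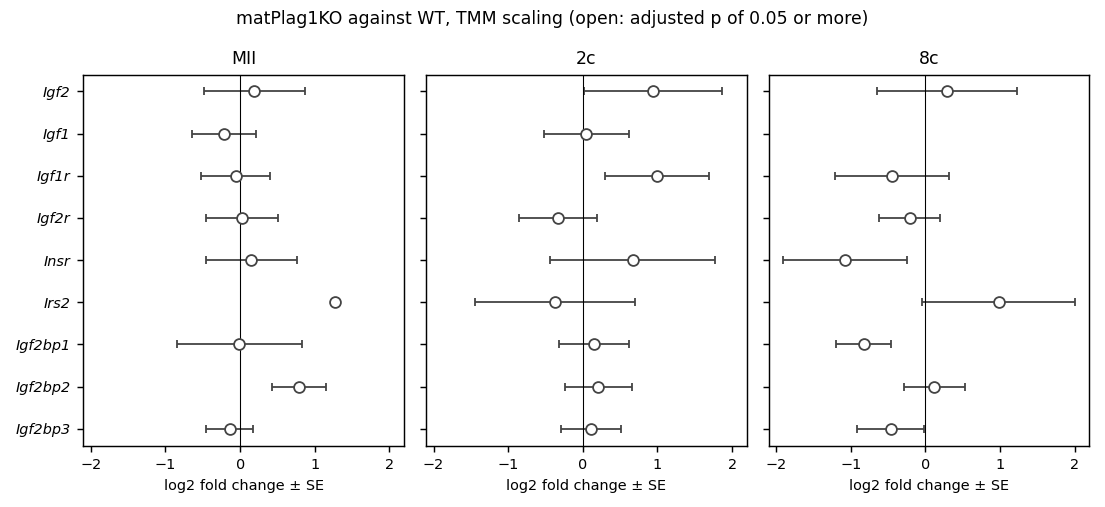
Log2 fold change of matPlag1KO against WT for the 9 genes at each stage after TMM scaling, in the fit without a term for wells. Bars of 1 SE are drawn where both groups had a count. All points are open (adjusted p of 0.05 or more), and Igf1 has no point at 8c, where it had 0 counts in both genotypes.

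A list of 61 other genes of the pathway (binding proteins, adaptors, PI3 kinase and AKT, mTOR, partners of the IGF2BP proteins and PLAG relatives) was read beside the 9. Of these, 54 were tested, while Ins1, Ins2, Igfbp1, Igfbp4, Pappa, Irs4 and H19 were too low, the insulin genes, Igfbp1 and H19 at 0 counts. Of the 54, 0 were called between genotypes at MII (0 at an unadjusted p under 0.05), 3 at 2c (10 at an unadjusted p under 0.05) and 0 at 8c (9) in edgeR, and the median log2 fold change was -0.08, 0.34 and -0.15, against 0, 0.12 and 0 over all genes. At 2c 4.92% of all genes were called, a share close to these 3 of 54. The 3 were adaptors and a receptor, and each is given with its values within plates, where none was called. Grb2, the adaptor that links receptors to RAS, was lower in matPlag1KO (25.1 ± 13.8 against 66.7 ± 29.1 CPM, SD, n = 11 each; log2 fold change -1.38 ± 0.44, adjusted p = 0.0457). The call was lost with spike-in scaling (adjusted p = 0.221), on plate A (-1.26, adjusted p = 0.593) and on plate B (-1.54, adjusted p = 0.0981). Insrr, the insulin receptor-related receptor, was higher (33.2 ± 29.4 against 5.71 ± 7.67 CPM; log2 fold change 2.48 ± 0.80, adjusted p = 0.0435), and this call too was lost with spike-in scaling (adjusted p = 0.0836), on plate A (1.75, adjusted p = 0.692) and on plate B (2.75, adjusted p = 0.0512). Irs1, the relative of Irs2, had 11 counts over 4 of 11 matPlag1KO embryos and none in 11 WT embryos (adjusted p = 0.0179, edgeR). With spike-in scaling its adjusted p was 0.027, on plate B alone it was 0.0773, and plate A gave no value.

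From MII to 2c, 35 of the 54 fell and 5 rose in WT (median log2 fold change -1.67), and 34 fell and 7 rose in matPlag1KO (median -1.55). Of all tested genes 51.3% fell and 14.1% rose in WT, and 50.3% and 13.5% in matPlag1KO. Among those with the smallest adjusted p, Syncrip, an RNA-binding partner of the IGF2BP proteins, rose in WT by 5.10 ± 0.58 and Dhx9, an RNA helicase, by 2.80 ± 0.41 on the log2 scale. Hmga2, a chromatin protein, fell by 3.68 ± 0.61, Rictor, a subunit of mTOR complex 2, by 3.18 ± 0.51, and Pik3r1, the regulatory subunit of PI3 kinase, by 2.58 ± 0.44. From 2c to 8c, 21 rose and 8 fell in WT (median 0.95), and 14 rose and 11 fell in matPlag1KO (median 0.12), where of all genes 31.9% rose and 16.2% fell in WT and 29.1% and 19.5% in matPlag1KO. In WT Hmga2 rose by 4.71 ± 0.61, the adaptor Gab1 by 4.50 ± 0.80, the translation repressor Eif4ebp1 by 3.67 ± 0.55 and the RNA-binding Ybx1 by 2.40 ± 0.38, while Pik3r1 fell further, by 2.55 ± 0.49.

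The genes with the most similar profile to each of the 6 better measured genes were found by Pearson's r of log2(CPM + 1) over the 78 libraries among the 10840 genes that averaged 10 CPM or more in any group. The libraries share stage and depth, so these are descriptions. Igf2bp1 was most like Calcoco2 (r = 0.904), Rpl8 (0.901) and Gja1 (0.899), all of them low in oocytes and high at 8c. Igf2r was most like Pmm2 (0.834), Mrpl20 (0.832) and C130074G19Rik (0.817). Igf1 was most like Pnp2 (0.874), Knstrn (0.874) and Tm2d3 (0.865), and Igf2bp3 like Agtpbp1 (0.818), Pik3r1 (0.818) and Ipo8 (0.802), which were all low at 8c. Igf1r was most like Garem (0.729), Diras2 (0.716) and Trio (0.714). Igf2bp2 was most like Tbc1d14 (0.761), Tbp (0.759) and Mos (0.756), the last an oocyte kinase that is among the 7 oocyte genes.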

How the data were processed

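The authors sequenced single oocytes and embryos in 2 pools (plates), using 5′-end libraries with molecular identifiers and spike-in RNA, aligned reads to mm9 and deposited raw counts per gene and for 92 spike-in RNAs in 90 libraries, made with HOMER per the labels. Versions and strand setting are not given in the sources used here. Every column matched a label, and 0 were unmatched. No libraries of a group were copies (lowest chi-square per degree of freedom 3.07).

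Excluded were 12 libraries whose median CPM was under 1 (taken over genes that reached 1 CPM in 5 or more libraries). Genes that reached 1 CPM in 5 or more of the others were tested, and since all 9 passed, the planned separate test of members under the filter was empty. All 6 groups entered 1 fit in edgeR 4.0.16 (R 4.3.3), quasi-likelihood test, Benjamini-Hochberg adjustment, with TMM factors between genotypes and spike-in totals as library size between stages. Shares were compared by two-sided permutation tests (100000 resamples, exact under 10 libraries, scipy 1.17.1). The depth sets the precision. The 95% counting intervals of pooled counts and the floors of 3 counts cover counting error only. The 95% intervals of the edgeR fold changes come from their SE, which includes the spread between libraries. Steps were tested on simulated data. DESeq2 1.42.0 and the other alternatives are in the closing section.

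Wells were checked for pairing by correlating deviations from the group and plate means over 8418 genes. In oocytes all 14 pairs exceeded 0.1 (lowest 0.148), so wells served as replicate block. The 8 pairs at 2c went down to 0.0248, and 6 of them shared a genotype. The 12 at 8c also exceeded 0.1 (0.104 to 0.416), but all 12 shared a genotype, so well and genotype could not be told apart. Neither stage was blocked, so the 8c tests treat libraries that deviated together in pairs as independent.

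Named genes are the 9 genes, Plag1, listed pathway genes that passed (at most 5 per genotype comparison, 4 per stage comparison and direction, by adjusted p) and the 3 genes most like each member. The members and lists were chosen with earlier results of these data known, and the Igf2bp1 share, the leaving out of single libraries and the gap in the oocyte genes were chosen after values were seen.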

Additional observations from a re-analysis of the deposited data

How the results depend on the processing

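The number of the 9 genes called was recomputed under each alternative. Between genotypes it was 0 throughout at 8c, and 1 at MII on plate B alone and with the wells as replicate block (Igf2bp2), and 1 at 2c on plate B alone (Igf2r). From MII to 2c in WT it was 3 on plate B alone, against 7, and from 2c to 8c in matPlag1KO it was 2 on plate A alone, against 4. The block was possible for oocytes only. It changed no other call among those of the 9 genes that it tested, and Irs2 was not tested in it. Leaving out 1 library at a time (78 libraries, dispersions of the full fit, chosen after seeing the data) kept every count within 1.5 times. The Igf2bp1 share rose from MII to 2c in matPlag1KO by 8.76 points with no library left out (adjusted p = 0.157) and from 2c to 8c by 28.1 points on plate A alone (adjusted p = 0.0530).

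Of 608 single log2 fold changes recomputed, 571 kept their side of the threshold, 42 of these with another sign but no call in either fit, while 17 lost their call and 18 gained one. Called values changed sign in 2 cases, both in matPlag1KO from MII to 2c: Igf1 with TMM factors (0.18) and Igf2r on plate B alone (-2.42). With TMM factors the median change of all genes was near 0, and Igf1, Insr and Igf2bp3 were not called from MII to 2c in either genotype. Nor was Igf1r in matPlag1KO. The cause of these lost calls was not tested. DESeq2 gave no adjusted p in 9 cases, all for Igf2, Insr or Irs2. Single libraries moved called values by over 1.5 times in 5 cases: besides Igf2bp1 and Igf2r, given with their results, Irs2 to 1.78 without WT 2c replicate 5 and Insr to -3.64 without WT 2c replicate 12, both from MII to 2c. Depth limits Igf2, Insr and Irs2 most, with 6, 4 and 6 counts over all 11 WT 2c embryos.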

Other observations

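Igfbp2, a secreted IGF-binding protein, was seen mainly at the 2c stage. It had 0 counts in 16 WT and 14 matPlag1KO oocytes, 27 counts over 5 of 11 WT 2c embryos and 12 counts over 5 of 11 matPlag1KO 2c embryos, and 5 and 4 counts over 3 of 15 and 3 of 11 8c embryos. In WT it was called higher at 2c than in oocytes (adjusted p = 8.97e-06) and lower at 8c than at 2c (log2 fold change -2.65 ± 0.98, adjusted p = 0.00588, edgeR with spike-in scaling). The fall was not called in WT on plate B alone (-1.34, adjusted p = 0.317) nor in matPlag1KO (-1.37, adjusted p = 0.215). Igf2os, which overlaps Igf2 on the other strand, had 22 counts in the 78 libraries together, 7 of them in 4 of the 11 matPlag1KO 2c embryos.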
